A study of Homo sapiens with 8 samples.

Results

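Each of 2 renal cancer cell lines was used to set miR-139-3p against miR-139-5p, the strands of 1 miRNA duplex. A498 and 786-O are established human lines of clear cell renal cell carcinoma. In each line 1 Agilent 2-colour array carried cells transfected with mature miR-139-5p and 1 carried cells transfected with mature miR-139-3p, by a lipid reagent, and the quantity described is the log2(Cy5/Cy3) of the miR-139-3p array minus that of the miR-139-5p array. Every array compared RNA of transfected cells, in Cy5, with RNA of mock cells of the line, in Cy3, which the labels call untransfected. No negative control miRNA was among the groups used here, and the dyes were not swapped. The difference removes a dye bias of a probe that is common to both arrays. It removes the mock only if both arrays of a line carried the same mock RNA, which the labels do not say. A negative difference means a lower transcript level with miR-139-3p than with miR-139-5p, and cannot by itself tell which strand moved the transcript. These are 4 of the 8 arrays of the series. The members are the probes that the scanner software marked as well above background in Cy3 or Cy5 on both arrays of a line. They numbered 25017 of 58201 probes in A498 and 23990 in 786-O, with 22183 in both lines. Counted as genes, with 1 probe per gene, they were 19167 genes in A498 and 18336 in 786-O, of 42072 named on the array.

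A miRNA duplex is cut from a hairpin transcript, and either strand can be loaded into an Argonaute protein. The loaded strand pairs with messenger RNAs mainly through its seed, bases 2 to 8 from its 5′ end, and a paired message is translated less and often degraded. Because the strands have different seeds, transfecting each one separately asks whether they act on different messages. miR-139-5p has been studied widely as a lowered miRNA in carcinomas, and miR-139-3p was long regarded as its passenger strand. The mature sequences below are those of RefSeq on GRCh38.p14 and are shown because the seeds (in capitals) define what each strand can pair with.
hsa-miR-139-5p: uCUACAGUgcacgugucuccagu
hsa-miR-139-3p: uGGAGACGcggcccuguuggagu

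Both strands are 23 bases long and lie on the minus strand of chromosome 11, at chr11:72615102-72615124 for miR-139-5p and chr11:72615066-72615088 for miR-139-3p. Their gene, MIR139, lies within the span of PDE2A, a phosphodiesterase gene at chr11:72576141-72674422. The probe of PDE2A gave log2 ratios of 0.040 (miR-139-5p array) and 0.039 (miR-139-3p array) in A498, and of -0.047 and 0.013 in 786-O. The strand difference of the host gene was thus -0.00087 in A498 and 0.059 in 786-O, within the technical spread given next.

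Each renal array held 58201 probes, of which 24983 to 26970 were above background, and 0 spots were saturated. Technical spread was taken in 2 ways. Repeated spots of 265 probes gave a single-spot SD of the strand difference of 0.0759 log2 units in A498 and 0.0780 in 786-O. The mock channels of the pair of arrays of a line, compared with each other over the genes measured, differed with an SD of 0.0901 in A498 and 0.0698 in 786-O. Of the 10 markers of kidney tubule and clear cell renal carcinoma, 9 were above background in the mock channel of both arrays in A498 and in 786-O, and CA9 was not. CDH6, which is among these 9, was not above background in HCT116 or MDA-MB-231, the other lines of the series. Of the same 10 markers, however, 6 were above background in MDA-MB-231 and 5 in HCT116. Of 6 colorectal markers only CDX1 was above background in the renal lines, as in MDA-MB-231, and 2 of 6 were in the colorectal line HCT116. The flag thus separates the lines only in part. Of the 4 fibroblast markers only PDGFRB was above background in the renal lines. The flag also marked 3 of 4 leukocyte markers (PTPRC, CD3E and CD14) in both renal lines and 3 of 4 breast luminal markers (ESR1, FOXA1 and TFF1 in A498, and ESR1, GATA3 and TFF1 in 786-O), and their part in any result was not tested.

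The strand difference was wide in A498 and narrow in 786-O. In A498 it had an SD of 0.207 over 19167 genes, 2.30 times that of the mock channels. In 786-O it had an SD of 0.0944 over 18336 genes, 1.35 times that of the mock channels. The strand difference holds the noise of both channels and the mock spread that of 1, so these ratios overstate the excess over technical spread. On the Cy5 channels alone, scaled as the mock channels were, the SD was 0.219 in A498 and 0.083 in 786-O. The mock SDs beside these were 0.0901 and 0.0698. Over the 17131 genes measured in both lines the SD was 2.23 times as large in A498 as in 786-O. With 1 array per strand and line there is no replicate within a line, so genes are counted there by size alone, with no test. In A498, 34 genes lay at or below -1 (0.177% of those measured) and 15 at or above 1 (0.0783%). In 786-O, 0 genes lay at or below -1 (0.0%) and 0 at or above 1 (0.0%). At a size of 0.5 the counts were 377 lower (1.97%) and 201 higher (1.05%) in A498, against 12 lower (0.0654%) and 3 higher (0.0164%) in 786-O. The values nearest to the size of 1 in A498 were -1.02 for CSF2 and -0.998 for SDCBP on the lower side, and 1.005 for CYSRT1 and 0.998 for RNA5-8SN5 on the higher side. For comparison, the strands of miR-490 in HCT116 differed with an SD of 0.328 over 20323 genes, and 90 genes lay at or below -1 and 174 at or above 1. Whether the lines differ in how much of either miRNA they took up was not measured.

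**Figure D1:**
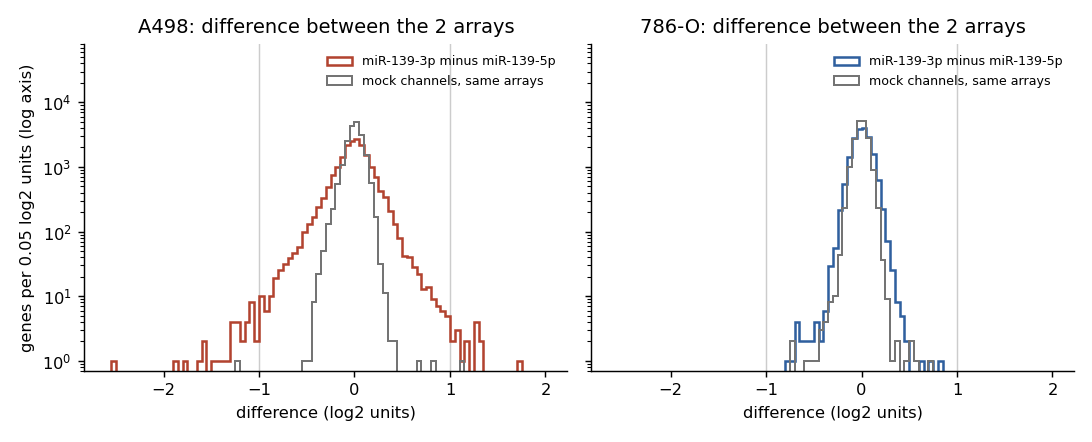
Number of genes (log axis) by the difference between both arrays of a line in log2 units, for the strand difference (coloured) and for the mock channels of the same arrays (grey), with lines at -1 and 1. In A498 the strand difference reaches past -1 and past 1, while in 786-O it stays between -0.78 and 0.83.

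In A498 the genes lowest with miR-139-3p relative to miR-139-5p included COX8A, PIGS, COL5A1, G0S2 and VKORC1. The positions given below are on hg19, the build of the array annotation. COX8A, a nuclear-encoded subunit of cytochrome c oxidase, read -0.081 on the miR-139-5p array and -1.70 on the miR-139-3p array in A498, and 0.042 and -0.33 in 786-O, for differences of -1.62 and -0.37. A second COX8A probe gave -1.60 in A498 and -0.19 in 786-O. Both COX8A probes were thus lower with miR-139-3p in both lines, and far more so in A498. PIGS, a subunit of the enzyme that attaches glycosylphosphatidylinositol anchors, read 0.19 and -1.40, a difference of -1.58, but its other probe gave -0.33. COL5A1, a fibrillar collagen chain, read 0.71 and -0.85, a difference of -1.56, and its other measured probe gave -0.32. The probes of PIGS and of COL5A1 thus had the same sign in A498 and disagreed on the size. G0S2, an inhibitor of lipolysis, read 0.67 and -0.83 (difference -1.50), and VKORC1, the reductase that recycles vitamin K, read 0.21 and -1.19 (difference -1.40). In 786-O the differences of PIGS, COL5A1, G0S2 and VKORC1 were -0.23, 0.14, 0.031 and -0.16, and the other PIGS probe had the opposite sign there, at 0.061.

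Most of the 34 lower genes of A498 departed from mock on the miR-139-3p array. Their median log2 ratio was -0.95 there and 0.21 on the miR-139-5p array, 34 of 34 read below 0 with miR-139-3p, and 31 of 34 were farther from 0 on the miR-139-3p array than on the other. The genes were chosen by the difference of these same readings, so low readings with miR-139-3p are largely set by the choice. Of the 34 genes, 3 have names that are no gene symbol and are counted only. The mock channels of these genes lay within 0.5 of each other in every case, and 27 of the 34 were also at or below -1 when the Cy5 channels alone were compared. For 5 of the 34 a further probe was measured. It had the same sign in 5 genes and was also at or below -1 in 2.

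At the other end, the genes highest in A498 with miR-139-3p relative to miR-139-5p included stress proteins and a small nucleolar RNA. PTPRU, a receptor tyrosine phosphatase, read -1.08 on the miR-139-5p array and 0.63 on the miR-139-3p array, a difference of 1.71, and a second probe gave 0.28. HSPA1A, the inducible chaperone HSP70, read -0.73 and 0.62 (difference 1.34). Its near-identical copy HSPA1B, chosen after its values were seen, gave 1.06, and the probes of these genes may share transcripts. HMOX1, the haem oxygenase induced by oxidative stress, read -0.82 and 0.47 (difference 1.29), and H2AZ2, a histone H2A variant, read -1.11 and 0.20 (difference 1.30). SNORA67, a small nucleolar RNA, read -0.046 and 1.24 (difference 1.29). PTPRU, HSPA1A, HMOX1 and H2AZ2 lay below mock with miR-139-5p and above it with miR-139-3p, whereas SNORA67 stood away from mock on the miR-139-3p array only. In 786-O the differences of PTPRU, HMOX1, H2AZ2 and SNORA67 lay between -0.033 (HMOX1) and 0.19 (H2AZ2), and HSPA1A did not pass the background filter. INPP4B, a phosphoinositide phosphatase, ranked with them at 1.28, with readings of -1.27 and 0.015. Its mock channels differed by -1.23, however, and the Cy5 channels alone differed by -0.12, and it was not measured above background in 786-O. Of the 15 higher genes INPP4B was the only 1 whose mock channels were 0.5 or more apart, and 14 of the 15 were at or above 1 on Cy5 alone. Their median log2 ratio was -0.63 on the miR-139-5p array and 0.62 on the miR-139-3p array, and 9 of 15 were farther from 0 on the miR-139-5p array. These genes too were chosen by the difference of the same readings.

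**Figure D2:**
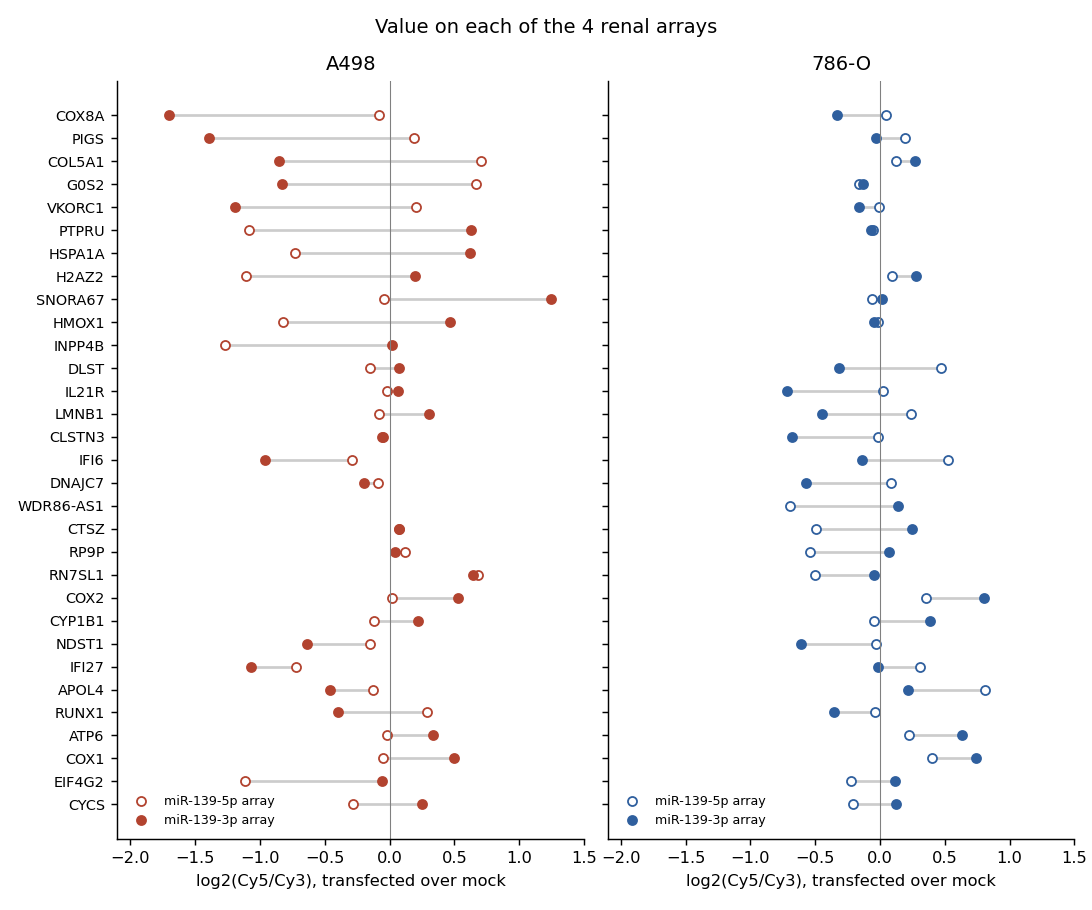
Log2(Cy5/Cy3) of the genes named as lowest and highest in A498, in 786-O and over both lines, as open circles (miR-139-5p array) and filled circles (miR-139-3p array), with A498 on the left and 786-O on the right. A grey bar joins the pair of arrays of a line, and its length is the strand difference, and genes that failed the background filter in a line are left blank there. The long bars of A498 at the top, such as that of COX8A, have short counterparts in 786-O.

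In 786-O the widest differences were smaller, and for 3 of the named genes the mock channels differed about as much. DLST, a subunit of a dehydrogenase complex of the citric acid cycle, read 0.47 on the miR-139-5p array and -0.31 on the miR-139-3p array, a difference of -0.78. LMNB1, the nuclear lamina protein lamin B1, read 0.24 and -0.45 (difference -0.68), and CLSTN3, a synaptic adhesion protein, read -0.016 and -0.68 (difference -0.66). DNAJC7, a co-chaperone, read 0.082 and -0.57 (difference -0.65). The corresponding differences in A498 were 0.22 for DLST, 0.39 for LMNB1, -0.0027 for CLSTN3 and -0.11 for DNAJC7. DLST and LMNB1 thus had opposite signs in the lines, and CLSTN3 and DNAJC7 were close to 0 in A498. On the higher side CTSZ, a lysosomal cathepsin, read -0.50 and 0.25 (difference 0.75), but its other probe gave 0.085. RN7SL1, the RNA of the signal recognition particle and a gene with many near-identical copies, read -0.51 and -0.043 (difference 0.46).

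IL21R, WDR86-AS1 and RP9P had strand differences of -0.74, 0.83 and 0.61 in 786-O. Their mock channels differed by 0.71, -0.58 and -0.46, and on the Cy5 channels alone their differences were -0.0016, 0.24 and 0.15. WDR86-AS1 was not well above background in Cy5 with miR-139-5p, and its Cy5 level with miR-139-3p was at least 1.12-fold higher. WDR86-AS1 is an antisense transcript, RP9P is a pseudogene whose probe may also bind transcripts of the parent gene, and IL21R is a cytokine receptor. Of the 12 genes at or below -0.5 in 786-O, 8 were also there on Cy5 alone, and of the 3 at or above 0.5 this held for 1.

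Few genes lay far from 0 on the same side in both lines. Of 17131 genes, 1 lay at or below -0.5 in both (0.00584%), 0 lay at or above 0.5 in both (0.0%), and 1 lay past 0.5 on opposite sides. The gene low in both was IFI6, an interferon-induced inhibitor of cell death. It read -0.29 on the miR-139-5p array and -0.96 on the miR-139-3p array in A498, and 0.52 and -0.14 in 786-O, so that differences of -0.67 and -0.66 stood on different readings against mock. Its single probe lies at chr1:27992837-27992896 on hg19. The gene on opposite sides was PFDN6, a subunit of the prefoldin chaperone, which read -0.51 and 0.37 in A498 (difference 0.88) and 0.18 and -0.36 in 786-O (difference -0.54). Wide gaps with opposite signs, mostly from A498, were also seen for TXNIP, an inhibitor of thioredoxin (-1.14 in A498 and 0.26 in 786-O), and for SNHG12, a host transcript of small nucleolar RNAs (-1.26 and 0.070).

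Below 0 in both lines lay 4360 genes (25.5%), and above 0 in both lay 4598 (26.8%). After IFI6, the lowest in both lines were NDST1, an enzyme of heparan sulphate synthesis, and COX8A, described above. NDST1 read -0.15 and -0.63 in A498 and -0.034 and -0.61 in 786-O, so that its differences of -0.49 and -0.58 came with close readings in both lines. IFI27, an interferon-induced mitochondrial protein (-0.35 and -0.33), APOL4, an apolipoprotein L (-0.33 and -0.59), and RUNX1, a transcription factor of haematopoiesis (-0.68 and -0.32), followed. IFI27 read -0.72 and -1.07 in A498, and 0.31 and -0.019 in 786-O. APOL4 read -0.13 and -0.46 in A498, and 0.81 and 0.22 in 786-O. In 786-O the differences of IFI27 and APOL4 thus stood on miR-139-5p readings above mock, whereas RUNX1 read -0.039 and -0.36 there. RUNX1 had further probes between -0.12 and -0.10 in A498 and between -0.24 and 0.22 in 786-O, and a second APOL4 probe gave -0.15 and 0.024. The probes of RUNX1 and APOL4 in 786-O therefore did not all keep the sign.

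The highest in both lines included 3 genes of the mitochondrial genome. COX2, here the mitochondrially encoded cytochrome c oxidase subunit, read 0.021 and 0.53 in A498 (difference 0.51) and 0.35 and 0.80 in 786-O (difference 0.44). ATP6, a subunit of ATP synthase, had differences of 0.36 and 0.41. COX1, the catalytic subunit of the same oxidase as COX2, had differences of 0.54 and 0.34, and the annotation places its probe on chromosome 1, where near-identical copies of mitochondrial DNA occur, so its source is uncertain. CYCS, the electron carrier cytochrome c, gave 0.53 and 0.33, with further probes from 0.40 to 0.50 in A498 and at 0.10 in 786-O. CYP1B1, a cytochrome of xenobiotic metabolism, gave 0.34 and 0.43, and its second probe 0.20 and 0.28. EIF4G2, a translation initiation factor often cited as a target of miR-139-5p, read -1.12 on the miR-139-5p array of A498 and -0.060 on the miR-139-3p array, and -0.22 and 0.11 in 786-O. Its differences were 1.06 and 0.34, and its second probe gave 0.78 and 0.12. EIF4G2 was thus lower on the miR-139-5p array than on the miR-139-3p array in both lines and on both probes.

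**Figure D3:**
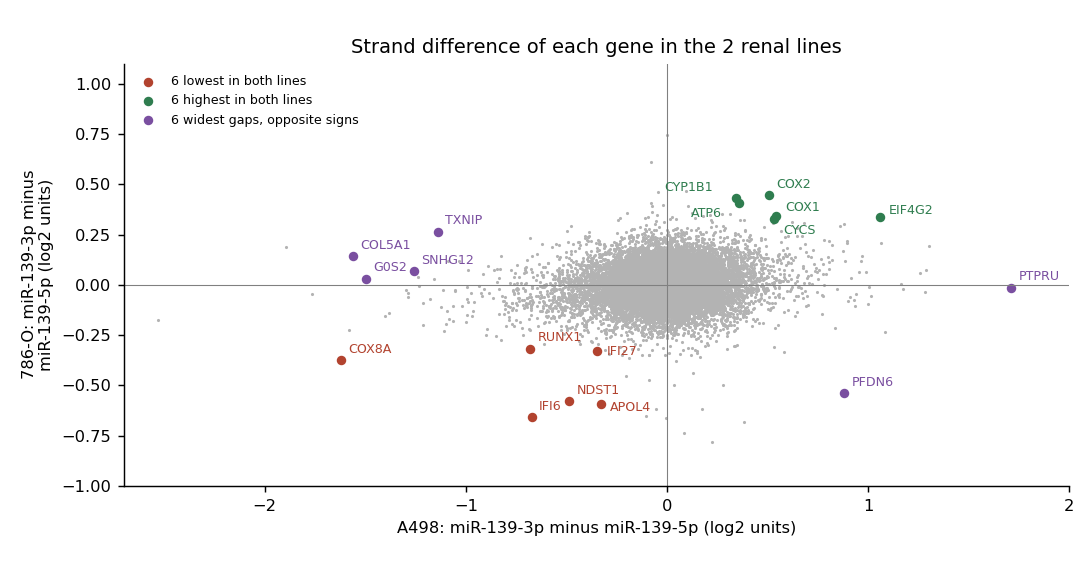
Strand difference of each of 17131 genes in A498 (horizontal axis) and in 786-O (vertical axis), both in log2 units. Coloured points are the 6 genes lowest in both lines (red), the 6 highest in both lines (green) and the 6 with the widest gap between lines on opposite sides of 0 (purple), and the cloud is stretched along the A498 axis.

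Across genes the lines' differences had a Pearson correlation of 0.116 and a Spearman correlation of 0.0878 (17131 genes). The lines share no array, but the points share the slide, the array design and the base composition of the probes, and genes are not independent replicates. With each array only centred on its median, in place of loess, the median of all genes moved to -0.10 in A498 and 0.092 in 786-O, and the correlations turned to -0.131 and -0.196. The genes chosen in A498 could be read again on the arrays of 786-O, which played no part in choosing them. Of the 377 genes at or below -0.5 in A498, 354 were measured in 786-O, and 252 of them (71.2%) were below 0 there, against 48.2% of all genes. Their median in 786-O was -0.059. Of the 201 at or above 0.5 in A498, 187 were measured in 786-O, and 124 (66.3%) were above 0, against 51.8% of all genes, with a median of 0.044. At a size of 1, 24 of 33 lower genes and 6 of 12 higher genes had the sign of A498. Chosen in 786-O instead, 6 of 11 lower genes had that sign in A498.

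The lines were then used as replicates in 1 fit. In limma, with the cell line as a block, 0 of 22178 probes (0.0%) had an adjusted p under 0.05 over the 4 arrays, and 1370 (6.18%) had an unadjusted p under 0.05. The lowest adjusted p was 0.602, for IFI6, with a difference of -0.66 ± 0.08 (SE, n = 2 arrays per strand) in limma. Each SE here draws mostly on a spread pooled over the probes tested. NDST1 followed at -0.53 ± 0.08 (limma adjusted p = 0.796). COX8A came to -0.997 ± 0.23 (limma adjusted p = 0.796) and EIF4G2 to 0.70 ± 0.15, with the same adjusted p. A paired exact permutation test over 2 lines cannot go below p = 0.5. Without background correction the same fit called 23 probes, 16 lower and 7 higher, F3 and COX8A among the lower and PTPRU, H2AZ2 and EIF4G2 among the higher, and 0 probes under each of the other alternatives run.

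The genes of interferon signalling were described by lists of known members, ordered from ligand to effector. Cells that sense foreign RNA release interferons, whose receptors act through STAT proteins to switch on antiviral effectors and antigen presentation. Of all genes, 50.3% lay below 0 and 49.7% above it in A498, against 48.2% and 51.8% in 786-O, and the medians of all genes were -0.00094 and 0.0034. The ligands and receptors had a median of -0.055 in A498 (10 measured) and 0.019 in 786-O (8 measured), with IFNGR1, a chain of the interferon gamma receptor, lowest in A498 at -0.45. Of the RNA sensors and adaptors 16 of 19 were below 0 in A498, with a median of -0.25 and 5 at or below -0.5, against 8 of 16 and a median of -0.0071 in 786-O. IFIH1, a sensor of double-stranded RNA, read -0.26 on the miR-139-5p array of A498 and -0.94 on the miR-139-3p array, and 0.17 and -0.052 in 786-O (differences -0.68 and -0.22). The signal transducers had medians of -0.25 and 0.0031, and 10 of 11 were below 0 in A498, STAT2 lowest at -0.45. The sensors and transducers, but not the ligands and receptors, were thus mostly lower with miR-139-3p in A498, and the medians of all 3 lists were near 0 in 786-O.

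The effectors stood below 0 in both lines. Of the interferon-stimulated effectors 42 of 50 were below 0 in A498 and 34 of 43 in 786-O, with medians of -0.27 and -0.083. In A498, 10 of 50 lay at or below -0.5 (1.97% of all genes did) and in 786-O 1 of 43 did, IFI6. Their median log2 ratio was -0.17 on the miR-139-5p array of A498 and -0.50 on its miR-139-3p array, and 0.058 and -0.026 in 786-O. In A498 the list was thus below mock on both arrays and lower on the miR-139-3p array, whereas in 786-O both medians were close to mock. UBE2L6, the conjugating enzyme for ISG15, read 0.10 and -0.86 in A498 (difference -0.96) and had a difference of -0.13 in 786-O. Of the 43 effectors measured in both lines, 29 (67.4%) were below 0 in both, against 25.5% of all genes, and 18 of 43 had an unadjusted p under 0.05 in limma, all lower with miR-139-3p, against 6.18% of all probes, with 0 called after adjustment. The same count was 8 of 14 for hypoxia and HIF targets and 10 of 23 for matrix and adhesion genes, all lower, and 8 of 20 for NF-kB and inflammatory genes, 7 of them lower. These counts carry no test, since genes of a list are not independent replicates and the lists were chosen with earlier results of these data known. HLA class I presentation had medians of -0.24 and -0.062 and 14 of 15 and 12 of 15 genes below 0. B2M, the light chain of class I molecules, had differences of -0.57 and -0.0032. With median centring the medians of both lists in 786-O lay at 0.0028 and 0.16, beside a median of all genes of 0.092, so the position of the HLA list against all genes turned there.

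**Figure D4:**
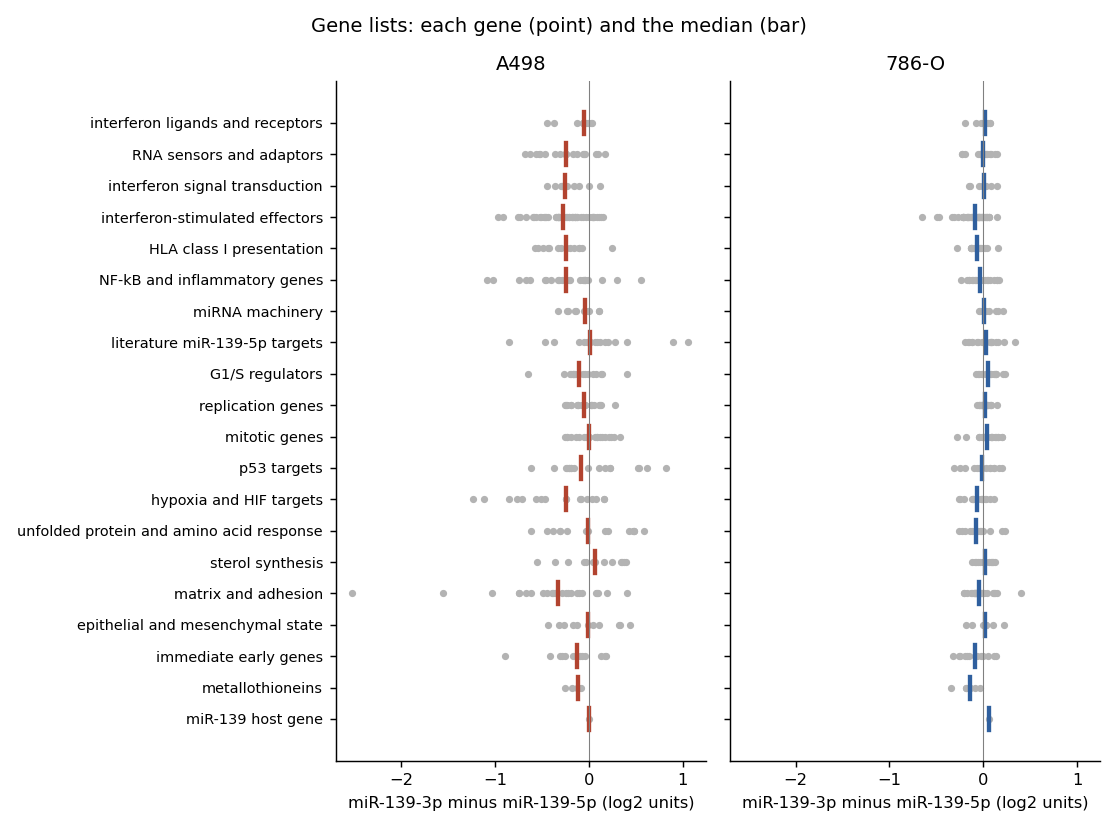
Strand difference (log2 units) of each measured gene (grey point) and the median (coloured bar) of 20 gene lists in A498 (left) and 786-O (right). In A498 the bars of the RNA sensor, interferon signal, effector, HLA, NF-kB, hypoxia and matrix lists lie between -0.32 and -0.24, and in 786-O the lowest bar, of the metallothioneins, lies at -0.14.

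Lists of inflammatory, hypoxia and matrix genes were also lower with miR-139-3p in A498. NF-kB and inflammatory genes had medians of -0.25 in A498 and -0.038 in 786-O. IL6, an inflammatory cytokine, read 0.30 and -0.78 in A498 (difference -1.08) and CSF2, a growth factor of granulocytes and macrophages, 0.23 and -0.79 (difference -1.02). ICAM1, an adhesion molecule of the same list chosen after its values were seen, went the other way at 0.56. Hypoxia and HIF targets had medians of -0.25 and -0.066, with 7 of 17 at or below -0.5 in A498 (1.97% of all genes) and 0 of 15 in 786-O (0.0654%). EGLN3, the prolyl hydroxylase that marks HIF proteins for destruction, read 0.45 and -0.78 in A498 (difference -1.23), and SLC2A1, the glucose transporter GLUT1, read 0.18 and -0.94 (difference -1.12). In 786-O their differences were -0.0082 and -0.11. Matrix and adhesion genes had the lowest median of the 20 lists plotted in A498, -0.32, against -0.040 in 786-O, with 19 of 24 and 18 of 25 below 0. Besides COL5A1, the basement membrane collagen COL4A1 read 0.50 and -0.54 in A498 (difference -1.04) and had a difference of 0.12 in 786-O. With median centring the medians of the NF-kB, hypoxia and matrix lists in 786-O were 0.073, 0.12 and 0.12, beside 0.092 for all genes.

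Genes cited in the literature as miR-139-5p targets lay on both sides of 0. Their medians were 0.013 over 19 genes in A498 and 0.034 over 17 genes in 786-O, near the medians of all genes. In A498, 2 of 19 lay at or above 0.5, EIF4G2 and HOXA9, and 1 lay at or below -0.5, CXCR4. HOXA9, a homeobox transcription factor, read -0.40 and 0.50 in A498 (difference 0.89) and 0.087 and 0.30 in 786-O (difference 0.22), and its 3 further probes gave 0.23 to 0.87 in A498 and 0.18 to 0.27 in 786-O. CXCR4, a chemokine receptor, read 0.30 and -0.55 in A498 (difference -0.85) and did not pass the background filter in 786-O. IGF1R, ROCK2 and ZEB1, a growth factor receptor, a kinase of the cytoskeleton and a repressor of epithelial genes, had differences of 0.28, 0.063 and 0.013 in A498 and of -0.12, -0.16 and 0.034 in 786-O, and second probes of ROCK2 and ZEB1 gave -0.074 and -0.056 in A498. The proteins that load and carry miRNAs had medians of -0.047 and 0.0074, with AGO3 farthest at -0.33 in A498. HOXA9, CXCR4, IGF1R, ROCK2 and ZEB1 were chosen after their values were seen.

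The medians of the cell cycle lists lay between -0.11 and 0.056, and the metallothioneins lay below 0 in both lines. The G1/S regulators had medians of -0.11 and 0.056, with MYC, a driver of growth, at -0.65 in A498 and -0.017 in 786-O. Replication genes had medians of -0.056 and 0.022, and mitotic genes 0.0046 and 0.042. The widest members were GINS1, a subunit of the replicative helicase (0.28 in A498), and MAD2L1, a spindle checkpoint protein (0.33 in A498). The p53 targets had medians of -0.085 and -0.016, with 10 of 18 below 0 in A498. There 4 of 18 lay at or above 0.5 (1.05% of all genes) and 1, GADD45A, a growth arrest gene chosen after its values were seen, lay at -0.61. TP53I3, an oxidoreductase induced by p53, read 0.19 and 1.01 in A498 (difference 0.82, and 0.74 on a second probe) and had a difference of 0.20 in 786-O. Sterol synthesis had medians of 0.060 and 0.015 with INSIG1, a brake on that pathway, at -0.55 in A498, and the unfolded protein and amino acid response had medians of -0.012 and -0.075 with CHAC1, an enzyme that degrades glutathione, at -0.62 in A498. Genes of epithelial and mesenchymal state had medians of -0.010 and 0.020, with the keratin KRT18 at 0.44 in A498. Immediate early genes had medians of -0.13 and -0.085, with DUSP1, a phosphatase of MAP kinases, at -0.90 in A498 and -0.25 in 786-O. The metallothioneins, small metal-binding proteins of near-identical sequence, were all below 0, 6 of 6 in A498 and 7 of 7 in 786-O, with medians of -0.12 and -0.14. Of all genes 50.3% and 48.2% were below 0, and 0 metallothioneins lay at or below -0.5 in either line. Their probes may share transcripts and are not separate readings. MT2A was the lowest of them in 786-O, at -0.35.

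Seed matches were looked for in the 60-base probe sequences, which are pieces of the transcripts. The match to bases 2 to 8 is ACTGTAG for miR-139-5p and CGTCTCC for miR-139-3p, and they were held by 0.320% and 0.168% of all probes. In A498 the 88 measured probes with ACTGTAG had a median difference of -0.027 and the 60 with CGTCTCC a median of -0.028, beside -0.0035 for all probes. In 786-O the medians were 0.023 (80 probes) and -0.028 (59 probes), beside 0.0030. The miR-139-5p matches thus lay on opposite sides of 0 in the lines. The miR-139-3p matches had medians below 0 in both. In A498, 37 of 60 probes (61.7%) were below 0, against 51.1% of all probes. In 786-O it was 34 of 59 (57.6%), against 48.5%. The reverse complements of the same words, CTACAGT and GGAGACG, had medians of -0.018 and 0.029 in A498 and 0.0045 and 0.0032 in 786-O. The word CGTCTCC contains the 6-base match GTCTCC, and 1 probe held both 7-base words.

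Among the genes lower by 1 or more in A498, 4 of 34 probes (11.8%) held the 6-base miR-139-3p match GTCTCC, against 1.87% of the 19167 genes measured, and 0 of the 15 genes higher by 1 or more did. At a size of 0.5 the match was held by 14 of 377 lower genes (3.71%) and 4 of 201 higher genes (1.99%). The 6-base miR-139-5p match CTGTAG was held by 1 of 34 genes lower by 1 or more, by 6 of 377 lower (1.59%) and 7 of 201 higher genes (3.48%) at a size of 0.5, and by 1.42% of all genes. These counts were made after the values were seen and carry no test. The 4 probes are those of COX8A, EGLN3 and 2 long noncoding transcripts known by database names, also chosen after their values were seen. The 2 noncoding transcripts share a run of bases before the match, and whether their probes are separate readings was not tested. Windows of 30 bases around the match (in capitals) are shown because they are what the 4 probes hold that miR-139-3p could pair with. On hg19 they lie at chrX:139866757-139866786, chr9:88487707-88487736 and chr11:63743923-63743952 on the plus strand, and at chr14:34393424-34393453 on the minus strand, in the order printed.
lnc-RP1-177G6.2.1-2: atgtcttccaaCGTCTCCagtgtgctgatc
lnc-NAA35-1: catgtcttccaGTCTCCAaaatacagttcc
COX8A: gacctcttgatGTCTCCAtggtgacctcct
EGLN3: gaataaactcaGTCTCCtacattagcattc

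The first of them, lnc-RP1-177G6.2.1-2, held the match to all of bases 2 to 8. It read -0.16 on the miR-139-5p array and -2.05 on the miR-139-3p array in A498, a difference of -1.89, and its difference in 786-O was 0.19. The transcript lnc-NAA35-1 read -0.18 and -1.94 in A498, a difference of -1.77, and had a difference of -0.046 in 786-O. It holds GTCTCCA, the match to bases 2 to 7 followed by A, as does COX8A, and EGLN3 holds GTCTCC. Of these 4, only COX8A was far below 0 in 786-O. Over all probes the shifts were small: the 453 measured probes with GTCTCC had a median difference of -0.013 in A498, and the 141 with GTCTCCA a median of -0.023. GTCTCC was held by 1.53% of all probes of the array and GTCTCCA by 0.517%. A 6-base match was also present in the probes of AGO3 (GTCTCC), APOL4 and HOXA9 (CTGTAG). Where a probe holds none of these words, this says only that the letters are not in its 60 bases, and whether the rest of each transcript holds a match was not tested.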

How the data were processed

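The 4 renal arrays of miR-139 were used, with the other 4 arrays of the slide for probe choice and comparison. Groups came from the labels. Per the file headers, the authors processed the scans with Agilent Feature Extraction 11.5.1.1 and deposited linear intensity columns (mean spot brightness and median local background), log10 ratios (Cy5 to Cy3) of the spots, and flags. The value table deposited for the series held the same log10 ratios. Columns without a sample numbered 0. The doses and times of transfection, and whether samples came from separate cultures, are not given in the sources used here. Each p thus rests on no replicates beyond these lines. The fit had 1 residual degree of freedom per probe, against 7.398 of a prior pooled over the probes tested. Each SE and p therefore reflects mostly that pooled spread between the lines, and only partly the spread of the gene itself.

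Background was corrected by normexp (offset 50) and ratios normalized by loess in limma 3.58.1 (R 4.3.3), without control and outlier spots. The offset pulls ratios of dim probes toward 0. Spots of a probe were averaged, and the probe with the highest mean intensity over 8 arrays stood for a gene. Of 33080 probes with a RefSeq accession 31104 matched a current symbol. The mock channels were quantile-normalized per line. The strand contrast used lmFit and eBayes with the line as a block and Benjamini-Hochberg adjustment, and was tested on simulated data. Lines pair the arrays by design (correlation of deviations 0.0753 over 22178 probes). Python 3.11.15 with pandas 2.3.3, numpy 2.4.6 and matplotlib 3.10.9 did the rest. Lists and members were chosen with earlier results of these data known. Named were the 6 lowest and 6 highest genes per line and over both lines, the 6 widest gaps with opposite signs, and list genes past 1 or else the farthest of a list. A few items that the rule names are not reported here. Alternatives changed the background correction, scaling, channel, filter and probe choice.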

Additional observations from a re-analysis of the deposited data

Results flagged for a closer look

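In 3 named genes the lines lay on opposite sides of 0 by over 3 times the SD of the mock channels in each line, and in 1 list the medians lay on opposite sides by over 0.05 in each line. Other lists had medians of opposite sign closer to 0. The difference between the lines was not tested, since each line has 1 array per strand. LMNB1 had a difference of 0.39 in A498 and -0.68 in 786-O. PFDN6 had 0.88 in A498 and -0.54 in 786-O. TXNIP, an inhibitor of thioredoxin and of glucose uptake, had -1.14 in A498 and 0.26 in 786-O. The median of the G1/S regulators was -0.11 in A498 and 0.056 in 786-O.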

How the results depend on the processing

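The limma contrast called 0 probes under every alternative except no background correction, which called 23. It called 0 with no replicate block and 0 without replicate 1 (A498) or without replicate 2 (786-O), where the remaining line is assumed to vary like the si-GINS1 arrays. In A498 the lower genes numbered 527 with the scanner log ratio, 70 without background correction, 77 with an offset of 10, 109 with median centring and 377 at a size of 0.5, and the higher genes 503, 40, 51, 9 and 201. The 34 lower genes of A498 were all among those found with the scanner log ratio, no background correction, an offset of 10 and median centring. Each of these settings placed more genes at or below -1, so this overlap says little. With Cy5 only 27 of the 34 were kept, and with the median over the probes of a gene 31. Of the 15 higher genes, 9 were kept with median centring, 14 with Cy5 only and 11 with the median over the probes. In 786-O the lower genes numbered 214 with the scanner log ratio, 2 without background correction, 3 with an offset of 10, 1 with Cy5 only, 1 without a filter and 12 at a size of 0.5, and the higher genes 273, 2, 2, 0, 2 and 3. Leaving out genes whose mock channels differed by 0.5 or more, chosen after seeing the data, left 34 and 14 in A498. With the scanner log ratio the SD of the strand difference was 0.499 in A498 and 0.365 in 786-O. It was 0.298 and 0.171 with an offset of 10, and 0.279 and 0.152 without background correction. A498 had the larger SD in each of these, by a smaller factor than in the main setting.

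Genes low in both lines, high in both and on opposite sides numbered 158, 155 and 285 with the scanner log ratio, 3, 1 and 3 without background correction, 7, 2 and 4 with an offset of 10, 0, 1 and 0 with median centring, and 0, 0 and 0 at a size of 1. The Pearson correlation was 0.0421 with the scanner log ratio and -0.131 with median centring, where the Spearman correlation was -0.196. For ACTGTAG in A498 the median was -0.043 with the scanner log ratio, -0.053 with an offset of 10, -0.089 with median centring, -0.0037 with Cy5 only and -0.0020 without a filter, and for CGTCTCC it was -0.051, -0.042, -0.15, -0.012 and -0.0039. In 786-O ACTGTAG had 0.12 with median centring and 0.012 without a filter, and CGTCTCC had -0.062 with the scanner log ratio, 0.11 with median centring, -0.0078 with Cy5 only and -0.013 without a filter. INPP4B in A498 reversed to -0.12 with Cy5 only. Of 40 list medians 12 changed sign with median centring and 10 with Cy5 only. The cause of these shifts was not tested. Median spot brightness of 19.8 to 21.3 in the renal arrays, against a background of 14 to 17, limits what dim probes can show.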

Other observations

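The following groups were put together after the values were seen, and their values are descriptions. Genes of the mitochondrial genome, which encode subunits of the respiratory chain, were higher with miR-139-3p than with miR-139-5p in both lines. Of 11 measured, 11 were above 0 in A498 (0.21 to 0.54, median 0.35) and 10 in 786-O (median 0.32), against 49.7% and 51.8% of all genes, with ND6 the exception at -0.15 in 786-O. Their median log2 ratio was -0.053 on the miR-139-5p array of A498 and 0.23 on its miR-139-3p array, and 0.26 and 0.49 in 786-O. Mitochondrial transcripts share near-identical nuclear copies, so their probes are not independent.

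Small nucleolar and Cajal body RNAs, guides of RNA modification, lay mostly above 0 in A498. Of 191 measured there, 156 were above 0 (median 0.095), against 49.7% of all genes, and 19 were at or above 0.5, against 1.05%. In 786-O 86 of 197 were above 0 (median -0.015), against 51.8% of all genes, and 0 were at or above 0.5. SNORA48 and SNORA2B read 0.12 and 0.15 on the miR-139-5p array of A498 and 1.29 and 1.23 on the miR-139-3p array. Many lie inside introns of other genes, and the labelling of such short RNAs was not examined.

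Among 13 genes of coagulation and fibrinolysis, 10 were below 0 in A498 and 11 in 786-O, against 50.3% and 48.2% of all genes. Their medians were -0.36 and -0.074. F3, the tissue factor that starts clotting, read 0.80 and -0.58 in A498 (difference -1.38), and THBD, the thrombomodulin receptor, read 0.16 and -1.13 (difference -1.30), whereas PLAU, the urokinase, was higher at 0.67. The amino acid transporters SLC7A5 and SLC7A1 had differences of -1.21 and -1.16 in A498, and -0.20 and 0.028 in 786-O. Of 19 glycolysis genes the median was -0.037 in A498, although HK2, a hexokinase, was at -1.10. Of 55 HSP70 and HSP40 chaperones 32 were above 0 in A498 (median 0.057), against 49.7% of all genes. HSPA8 was at 0.88 there and 0.30 in 786-O.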
